A study of Mus musculus with 30 samples.

Results

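Imprinted genes are transcribed mainly from the copy inherited from 1 parent, and many of them act on growth, metabolism and placental development. Their parental bias rests on DNA methylation laid down in the germ line, and a domain usually holds several imprinted genes read from either parental copy. The mutated genes encode Sp1 and Sp3, transcription factors of 1 zinc finger family whose target element, the GC box, is frequent in promoters with CG islands. The 10 genes described here lie outside the H19-Igf2 and Dlk1-Meg3 loci and were chosen by symbol: Mest, Peg3, Peg10, Sgce, Plagl1, Snrpn and Impact, which are known as paternally expressed, and Grb10, Cdkn1c and Phlda2, which are known as maternally expressed in most tissues. The choice was made with earlier results of these data known. All 10 were present among the 14685 genes of the deposited table, and all 10 passed the filter of more than 1 FPKM in at least 1 sample, as did 14525 genes in all. The values are totals over both parental alleles, so they carry no information on imprinting itself.

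RNA-seq was performed on E14 mouse embryonic stem cells (ESC) and on 4 populations made from them by in vitro haematopoietic differentiation: Flk1+ mesoderm cells from embryoid bodies and 3 KIT+ populations sorted at day 2 of blast culture. Among the latter, HE1 was the hemogenic endothelium with Tie2 but no CD41 at the surface, HE2 carried both, and progenitors carried CD41 but had lost Tie2. Each population was taken from WT cells, from Sp1 ΔDBD/ΔDBD cells, which express a truncated Sp1 without its DNA-binding domain, and from Sp3-/- cells, giving 15 groups of 2 biological replicates and 30 samples. The labels name no separate lines within a genotype, so that a difference between genotypes cannot be told apart from a difference between lines. They give no other treatment or allele for any group. By the study's methods the media differed between populations: embryoid bodies were grown without LIF, and blast cultures with VEGF, an interleukin and conditioned medium. Routine culture was on feeder fibroblasts, which were left out for the passages before differentiation, and whether this held for the ESC taken for RNA is not given in the sources used here.

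The Sp3-/- label was met by the RNA: Sp3 was at 3.38 to 7.79 FPKM in the 10 Sp3-/- samples against 25.9 to 58.1 FPKM in the 10 WT samples. The Sp1 ΔDBD/ΔDBD label could not be checked, since a whole-gene Sp1 value (14.8 to 40.5 against 24.9 to 52.4 FPKM in WT) does not show the deleted part. The ESC markers summed to at least 1104 FPKM in ESC and at most 99.8 elsewhere, the hemogenic endothelium markers were highest in HE1, and the progenitor markers were highest in the progenitors. Depth is unknown, since FPKM were deposited after quantile normalisation. Summed markers of smooth and cardiac muscle (all 5 of Acta2, Tagln, Myl7, Tnnt2 and Myh6 in the table) were uneven in the blast culture: replicate 1 of the WT and Sp1 ΔDBD/ΔDBD groups carried 980.0 to 1662 FPKM in HE1 and 363 to 428 FPKM in HE2, replicate 2 carried 248 to 354 and 35.7 to 70.0 FPKM, and the Sp3-/- samples carried 122 to 194 and 115 to 137 FPKM. Of the defining markers, Myl7 was under 0.1 FPKM in both samples of the 3 Sp3-/- groups from blast culture and of Sp1 ΔDBD/ΔDBD progenitors, and Myh6 in WT and Sp1 ΔDBD/ΔDBD HE2 and progenitors. Summed fibroblast markers (5 of 7 in the table) followed the same libraries, with 282 and 35.7 FPKM in WT HE1 against at most 27.7 in Sp3-/- HE1. In ESC their ranges were 5.65 to 5.77 (WT), 12.7 to 15.6 (Sp1 ΔDBD/ΔDBD) and 4.31 to 10.3 FPKM (Sp3-/-). The part of these cells in the results was not tested beyond leaving libraries out. Replicate 1 of WT and Sp1 ΔDBD/ΔDBD HE1, HE2 and progenitors (called the 6 libraries below) was therefore left out in an added fit. In that fit each of the groups concerned held 1 sample, which is assumed to vary like the other groups. Its adjusted p and its calls rest partly on a changed pooled spread and are weaker evidence than those of the main fit. Comparisons within ESC or Flk1+ cells contain none of the 6 libraries, so their fold changes could not move.

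On the mm10 build the genes other than Impact lie at chr6:30723547-30748465 (Mest), chr6:4747306-4760517 (Peg10), chr6:4674350-4747207 (Sgce), chr7:6703892-6730431 (Peg3), chr7:59982495-60140219 (Snrpn), chr7:143458339-143461050 (Cdkn1c), chr7:143501545-143503150 (Phlda2), chr10:13060504-13131694 (Plagl1) and chr11:11930508-12038683 (Grb10).

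GC boxes were looked for in the RefSeq promoter windows, 250 bases before to 50 after a start, which were matched for 6 of the 10 genes (Mest, Peg3, Phlda2, Grb10, Plagl1 and Snrpn). The motif was GGGCGG on either strand (CCGCCC on the printed strand), with overlapping matches counted, and 66.8% of the 11139 genes of the table with a window held at least 1. The stretches below belong to genes that were lower in Sp3-/- cells and leave out exons of protein-coding transcripts, which takes 1 of the 2 Plagl1 boxes away. They are on build GRCm38.p6, 5′ to 3′ on the strand of the gene, with GC boxes in capitals.
Mest (chr6:30737800-30738049, plus strand): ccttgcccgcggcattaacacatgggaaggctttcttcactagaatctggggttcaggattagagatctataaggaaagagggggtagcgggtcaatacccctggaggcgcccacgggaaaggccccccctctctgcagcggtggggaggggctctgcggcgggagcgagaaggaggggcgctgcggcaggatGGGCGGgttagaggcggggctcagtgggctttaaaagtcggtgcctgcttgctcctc
Grb10, outer start (chr11:12037421-12037670, minus strand): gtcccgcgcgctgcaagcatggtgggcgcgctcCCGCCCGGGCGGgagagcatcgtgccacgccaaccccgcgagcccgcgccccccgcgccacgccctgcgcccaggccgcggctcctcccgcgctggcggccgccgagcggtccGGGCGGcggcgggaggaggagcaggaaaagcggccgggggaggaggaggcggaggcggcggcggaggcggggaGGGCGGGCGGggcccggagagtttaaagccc
Grb10, inner start (chr11:12027972-12028221, minus strand): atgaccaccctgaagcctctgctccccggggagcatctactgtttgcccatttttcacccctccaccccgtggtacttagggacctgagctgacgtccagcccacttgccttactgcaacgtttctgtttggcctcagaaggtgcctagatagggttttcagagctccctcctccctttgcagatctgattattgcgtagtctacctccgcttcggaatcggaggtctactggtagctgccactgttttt
Plagl1 (chr10:13090582-13090787, plus strand): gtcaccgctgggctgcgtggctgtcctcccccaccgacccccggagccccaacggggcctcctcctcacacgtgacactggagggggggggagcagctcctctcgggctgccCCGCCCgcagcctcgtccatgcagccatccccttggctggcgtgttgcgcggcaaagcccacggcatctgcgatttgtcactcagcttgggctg
Peg3 (chr7:6730422-6730582, minus strand): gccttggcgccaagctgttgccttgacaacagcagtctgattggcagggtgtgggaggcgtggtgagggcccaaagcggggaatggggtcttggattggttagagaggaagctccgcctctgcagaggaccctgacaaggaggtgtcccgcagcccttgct

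Counted over whole windows, each of the 3 Mest windows held 1 GC box, the outer Grb10 window 5 and the inner none, Plagl1 2, Phlda2 2, Peg3 none, and none was in the 4 Snrpn windows. These are matches of letters and not binding sites.

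The first comparison asked how the 10 genes moved along differentiation of WT cells. In WT, 7 of 10 genes reached their highest mean in HE1, while Peg10 and Phlda2 were highest in Flk1+ cells and Snrpn in ESC. The HE1 samples of Impact overlapped ESC (60.6 and 67.5 against 58.5 and 64.1 FPKM), and those of Sgce overlapped HE2. How many of all genes were highest in HE1 was not counted. For 8 of 10 genes the population with the highest mean was the same in all 3 genotypes. In WT, 8 of 10 genes passed the limma test between ESC and Flk1+ cells, 5 of 10 between Flk1+ cells and HE1, 6 of 10 between HE1 and HE2, and 4 of 10 between HE2 and progenitors. Among all genes tested these steps called 52.2%, 53%, 21.9% and 13.2%. Levels below are in FPKM, which is per length of transcript, and fold changes are log2 differences of FPKM + 0.1 with the standard error of the fit.

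Mest, which encodes a protein of the alpha/beta hydrolase family, showed the highest level of the 10 genes. WT ESC had 28.3 and 37.0 FPKM, Flk1+ cells 61.7 and 82.6, HE1 1111 and 1376, HE2 517 and 700, and progenitors 125 and 120. Ordered by level, no neighbouring populations overlapped. Mest rose by 4.11 ± 0.272 (log2, SE, adjusted p = 6.43e-10, limma) from Flk1+ cells to HE1 and fell by 2.29 ± 0.272 (adjusted p = 1.07e-05, limma) from HE2 to progenitors.

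**Figure D1:**
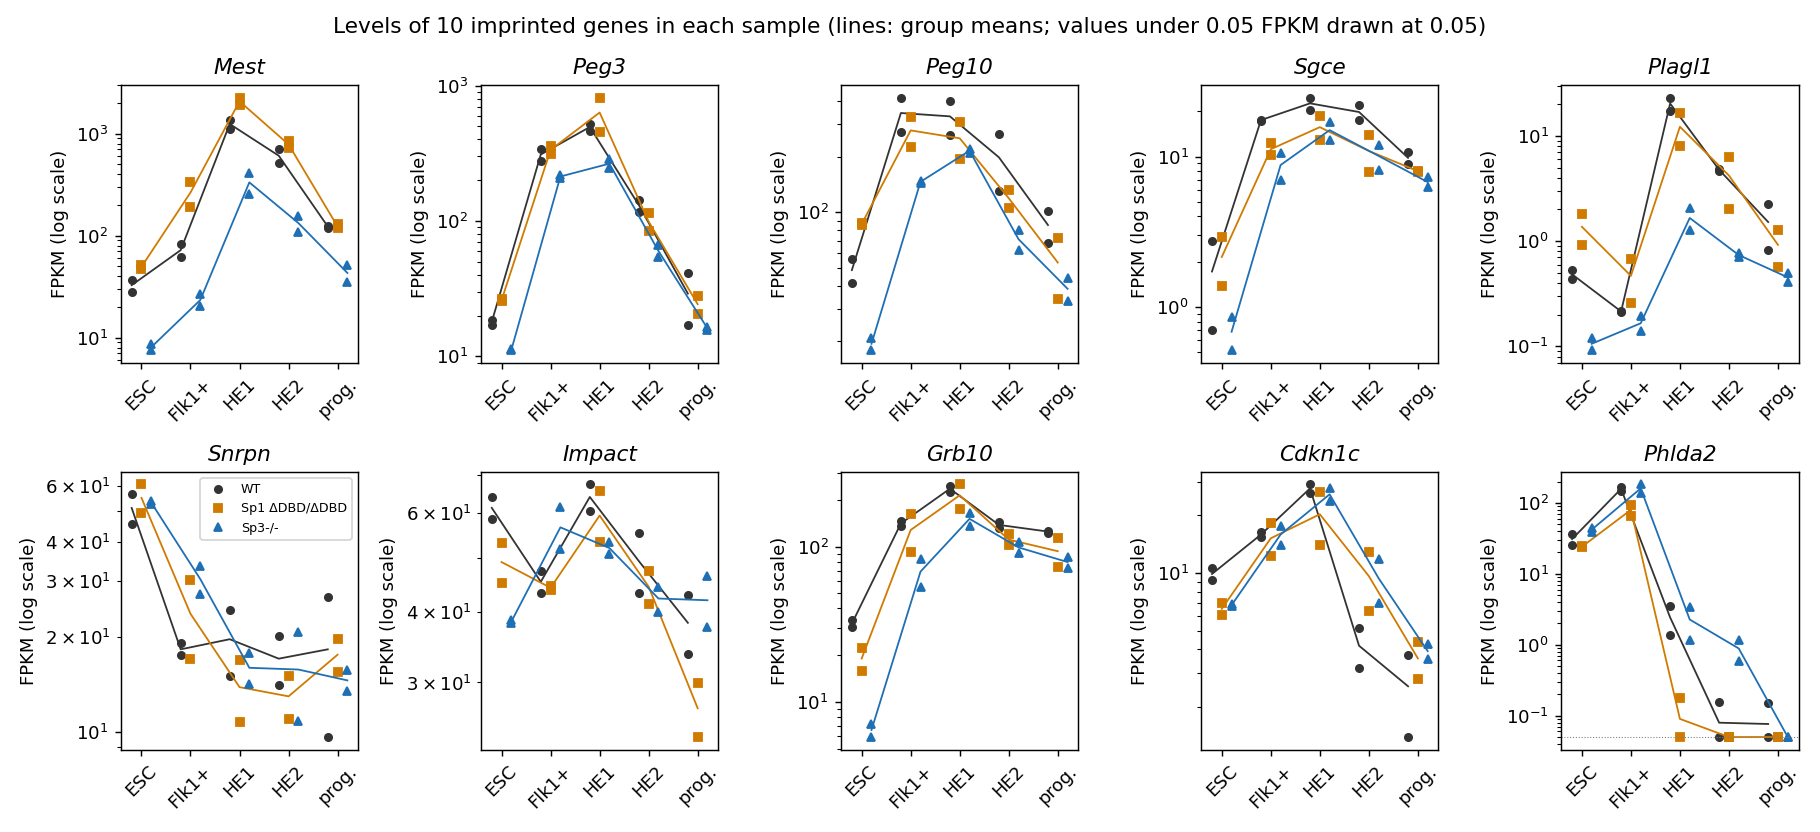
FPKM on a log scale of the 10 genes in ESC, Flk1+ cells, HE1, HE2 and progenitors (prog.), for WT (black circles), Sp1 ΔDBD/ΔDBD (orange squares) and Sp3-/- (blue triangles); points are the 2 samples of a group, lines join group means, and values under 0.05 FPKM are drawn at 0.05. In WT, 7 of the 10 genes had their highest mean in HE1, and the Mest points of Sp3-/- cells lay below those of WT in all 5 populations.

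Plagl1, a zinc finger transcription factor, rose between the same populations. WT ESC had 0.435 and 0.532 FPKM, Flk1+ cells 0.217 and 0.213, HE1 17.4 and 23.1, HE2 4.87 and 4.64, and progenitors 2.23 and 0.816. HE1 stood apart from every other population, and its mean was 94.1 times that of Flk1+ cells (adjusted p = 2.66e-08, limma). Peg3, another zinc finger protein, rose earlier. It had 18.7 and 17.2 FPKM in WT ESC and 279 and 341 in Flk1+ cells, a step of 4.09 ± 0.293 (adjusted p = 1e-09, limma). It then reached 464 and 523 FPKM in HE1, and the groups did not overlap although this later step did not pass the test (adjusted p = 0.0592, limma).

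Peg10, a gag-like protein derived from a retrotransposon and needed for the placenta, and Sgce, the sarcoglycan epsilon chain, start 98 bases apart on opposite strands of chromosome 6 and share an imprinted domain. Both rose from WT ESC to Flk1+ cells, Peg10 by 2.80 ± 0.359 and Sgce by 3.54 ± 0.439 (log2, SE, adjusted p = 2.32e-06 and 1.51e-06, limma). Peg10 was at 271 and 417 FPKM in WT Flk1+ cells and 262 and 398 in HE1, which overlapped. Sgce was at 17.3 and 17.6 FPKM in Flk1+ cells, 20.4 and 24.7 in HE1 and 22.0 and 17.5 in HE2, again with overlap between HE2 and each of the others.

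Grb10, an adaptor that restrains insulin and IGF receptor signalling, rose from 33.7 and 30.2 FPKM in WT ESC to 146 and 136 in Flk1+ cells and 246 and 225 in HE1. Cdkn1c, the cell cycle inhibitor p57, was at 29.1 and 26.3 FPKM in WT HE1 and 5.16 and 3.18 in HE2, a fall of 2.74 on the log2 scale (SE 0.401, adjusted p = 0.000106, limma). Phlda2, which restrains placental growth, was at 169 and 147 FPKM in WT Flk1+ cells and nearly lost in blast culture, with 1.38 and 3.48 FPKM in HE1 and at most 0.158 FPKM in WT HE2 and progenitors. Cdkn1c and Phlda2 belong to the same Kcnq1ot1 domain on chromosome 7.

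Snrpn, a core protein of the spliceosome, and Impact, a regulator of translation through GCN2, changed least. Snrpn fell from 56.8 and 45.6 FPKM in WT ESC to 19.1 and 17.5 in Flk1+ cells and overlapped between all neighbouring populations after that. Snurf lies inside the Snrpn gene, and its value jumped between replicates, for example 0.027 and 8.53 FPKM in WT progenitors where Snrpn had 26.8 and 9.67. The division of reads between these genes is therefore uncertain, and their sums, 26.9 and 18.2 FPKM in that group, lay closer together. Impact spanned only 1.67-fold between its highest and lowest WT means.

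Of the 23 WT steps that passed, 8 were lost when single WT libraries were left out: Mest, Plagl1 and Grb10 from HE1 to HE2, Peg10 and Plagl1 from HE2 to progenitors, Impact from ESC to Flk1+ cells, and Grb10 and Impact from Flk1+ cells to HE1. The largest adjusted p among them was 0.356, for Peg10 without HE2 replicate 2 (-0.65, limma). Without the 6 libraries, Mest from HE1 to HE2 (-0.98, adjusted p = 0.151) and both Grb10 steps (0.67 and -0.64, adjusted p = 0.0837 and 0.266, limma) no longer passed.

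The second comparison set Sp3-/- cells against WT. Lower values prevailed: 14 calls in 50 tests (10 genes in 5 populations) were lower in Sp3-/- cells and 1 was higher, involving 7 of the 10 genes. By population, 4 of 10 genes passed in ESC, 3 in Flk1+ cells, 2 in HE1, 5 in HE2 and 1 in progenitors, beside 11.3%, 12.6%, 10.9%, 13.8% and 8.65% of all genes tested. The lower calls alone were 4, 3, 2, 4 and 1, beside 5.91%, 5.94%, 4.87%, 6.84% and 4.77%. Both Sp3-/- samples were below both WT samples for 7, 6, 7, 6 and 6 of the 10 genes in these populations, beside 33%, 34.8%, 26%, 27.3% and 23.4% of all genes. Both were above for 1, 2, 0, 2 and 0, beside 28%, 33.2%, 35.4%, 31.8% and 32.9%. The members' log2 fold changes had a median of -0.83 (ESC), -0.39 (Flk1+ cells), -0.59 (HE1), -0.73 (HE2) and -0.59 (progenitors), where the medians of all genes ranged from -0.022 to 0.05. With each population fitted alone, on fewer samples, the 4 ESC calls passed and the other 11 of the 15 did not. Across all genes the fold changes rose with GC content, with a Spearman rho of 0.463, 0.338, 0.117, 0.337 and 0.112 from ESC to progenitors. A correction for GC content and length gave 14 calls in place of 15. The part of GC content in the medians and in the counts without overlap was not tested. Since the genes were chosen with earlier results of these data known, the shares beside all genes are a description and not a test. Genes of a domain are not independent of each other in such counts, and in these bulk samples fewer cells of a type cannot be told apart from less RNA per cell.

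Mest was lower in Sp3-/- cells in every population. Sp3-/- ESC had 7.52 and 8.60 FPKM, Flk1+ cells 26.5 and 20.4, HE1 410.1 and 256, HE2 157 and 108, and progenitors 51.3 and 34.9. None of these overlapped WT. The log2 fold changes were -2.00, -1.62, -1.93, -2.21 and -1.53, each with SE 0.272 (adjusted p = 0.000243, 0.00111, 0.000265, 9.21e-05 and 0.00223, limma). With each population fitted alone the 4 populations after ESC gave an adjusted p from 0.0504 to 0.0757 (limma). Mest nonetheless rose from ESC to HE1 by a similar factor in each line, the mean of HE1 being 38.1 (WT), 42.0 (Sp1 ΔDBD/ΔDBD) and 41.3 (Sp3-/-) times that of ESC. Without the 6 libraries the fold changes were -2.09 in HE1, -2.42 in HE2 and -1.50 in progenitors, each against 1 WT sample. The WT HE1 sample kept still had 354 FPKM of muscle markers, against 194 and 122 in Sp3-/- HE1. Hemogenic endothelium markers (6 of 6 in the table) summed to 762 to 769 FPKM in Sp3-/- HE1 and 807 to 1122 in WT HE1, and their part in this result was not tested.

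Plagl1 was lower in Sp3-/- HE1, with 1.27 and 2.05 FPKM against 17.4 and 23.1 in WT, and in HE2, with 0.706 and 0.769 against 4.87 and 4.64. These are log2 fold changes of -3.55 ± 0.530 and -2.54 ± 0.530 (adjusted p = 0.00042 and 0.00445, limma), with adjusted p = 0.0591 and 0.105 when each population was fitted alone. The groups did not overlap. Among all genes the HE1 value ranked 30 by size of change. In progenitors the fold change was -1.41 (adjusted p = 0.112, limma), and in ESC and Flk1+ cells all values were under 1 FPKM in both genotypes. Left out of the fit, the 6 libraries moved HE1 to -3.76 and HE2 to -2.50, each against 1 WT sample. In progenitors that fit gave -0.73. The muscle marker sums of both Sp3-/- samples were below those of both WT samples in HE1 (122 and 194 against 354 and 1662 FPKM) and in progenitors (56.2 and 67.6 against 76.1 and 258 FPKM), and lay between them in HE2, where WT replicate 2 had 70.0 FPKM of markers and 4.64 FPKM of Plagl1. Beyond leaving libraries out, their part in the Plagl1 values was not tested.

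**Figure D2:**
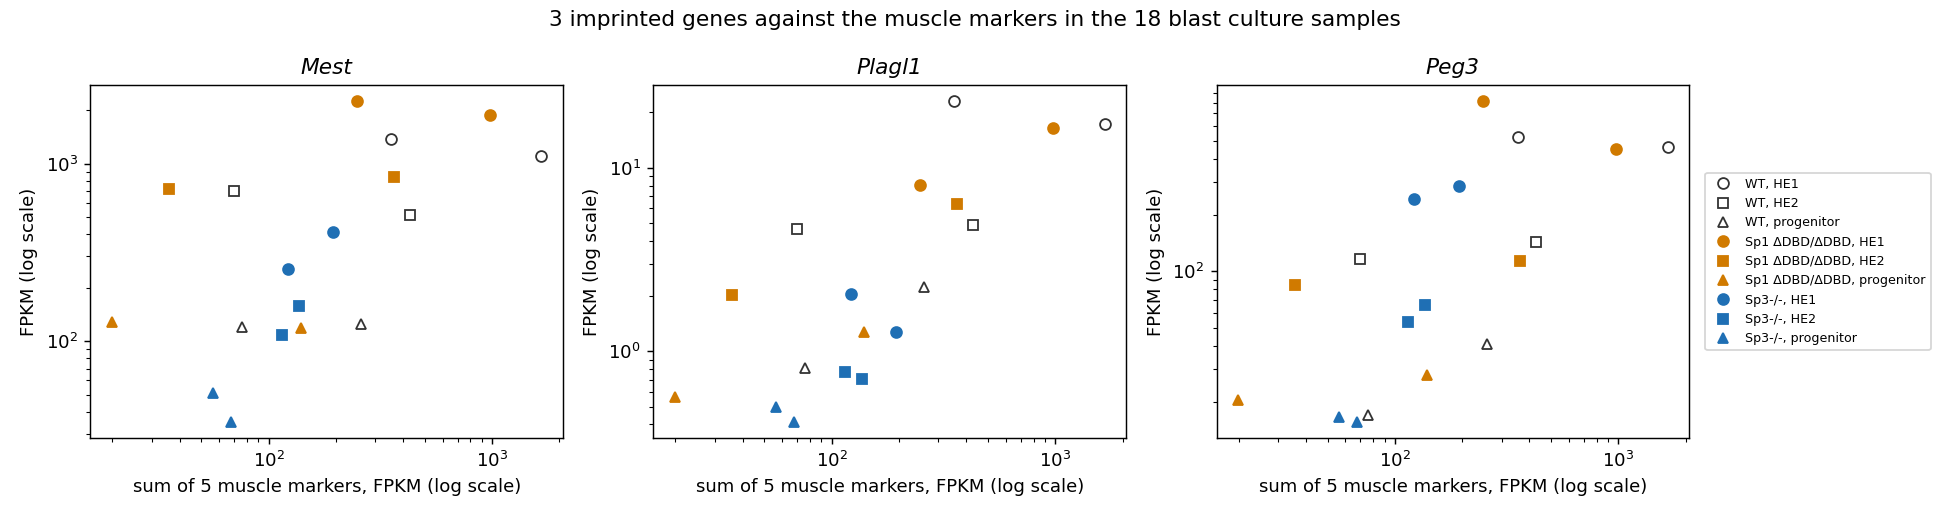
FPKM of Mest, Plagl1 and Peg3 (vertical, log scale) against the summed FPKM of 5 muscle markers (horizontal, log scale) in the 18 samples of HE1 (circles), HE2 (squares) and progenitors (triangles); open symbols are WT, orange Sp1 ΔDBD/ΔDBD and blue Sp3-/-. Sp3-/- samples had less marker RNA than both WT samples in HE1 (122 to 194 against 354 to 1662 FPKM) and progenitors (56.2 to 67.6 against 76.1 to 258), and lay between them in HE2 (115 to 137, against 70.0 and 428), and they were below both WT samples of HE1 and HE2 for all 3 genes.

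Grb10 differed most in ESC, where Sp3-/- samples had 7.22 and 5.93 FPKM against 33.7 and 30.2 in WT, a log2 fold change of -2.27 ± 0.253 (adjusted p = 4.9e-05, limma). In Flk1+ cells Sp3-/- samples had 54.9 and 83.2 FPKM against 146 and 136, or -1.06 ± 0.253 (adjusted p = 0.0101, limma). In blast culture the fold changes were smaller and did not pass, although all Sp3-/- samples stayed below WT, for example 136 and 165 against 246 and 225 FPKM in HE1 (-0.65, adjusted p = 0.106, limma). Leaving out the 6 libraries gave -0.58, -0.55 and -0.67 in HE1, HE2 and progenitors (adjusted p = 0.259, 0.28 and 0.185, limma). The fold change was nearer to 0 than in ESC by 1.62 ± 0.357 in HE1, 1.79 ± 0.357 in HE2 and 1.61 ± 0.357 in progenitors, and each of these differences passed the interaction test (adjusted p = 0.025, 0.0294 and 0.0341, limma), though each was lost on leaving out any of several single libraries. Such tests called 2.16%, 0.544% and 1.34% of all genes. Grb10 lies on chromosome 11, whose 1205 genes had a median log2 fold change of -0.162 in Sp3-/- ESC, -0.117 in Flk1+ cells, -0.225 in HE1, -0.265 in HE2 and -0.266 in progenitors. After centring each chromosome the Grb10 values in this order were -2.04, -0.92, -0.40, -0.20 and -0.37, and the calls in ESC and Flk1+ cells stayed (adjusted p = 0.000147 and 0.0211, limma). The Flk1+ call was lost without Sp3-/- replicate 1 (-0.76, adjusted p = 0.179), WT replicate 1 (adjusted p = 0.0678) or WT replicate 2 (-1.11, adjusted p = 0.0685, limma).

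Peg10 was lower in Sp3-/- ESC, with 20.8 and 17.9 FPKM against 55.6 and 41.6, in Flk1+ cells, with 144 and 148 against 271 and 417, and in HE2, with 80.1 and 62.7 against 131 and 266. The groups did not overlap, and the log2 fold changes were -1.31, -1.20 and -1.39, each with SE 0.359 (adjusted p = 0.0236, 0.0341 and 0.015, limma). In HE1 and progenitors it was -0.59 and -1.13 and did not pass. Without the 6 libraries, which leaves 1 WT sample in each population, the HE2 and progenitor values were -1.91 and -1.42. The calls depended on single libraries. In HE2 leaving out WT replicate 2 gave -0.88 (adjusted p = 0.154) and leaving out Sp3-/- replicate 2 gave -1.22 (adjusted p = 0.125, limma). In Flk1+ cells the call was lost without WT replicate 2 (-0.89, adjusted p = 0.31) or either Sp3-/- replicate (-1.18 and -1.22, adjusted p = 0.172 and 0.121), and in ESC without WT replicate 1 (-1.10, adjusted p = 0.172) or either Sp3-/- replicate (-1.42 and -1.20, adjusted p = 0.0933 and 0.154, limma). The ESC call was also lost after the correction for GC content and length (-1.10, adjusted p = 0.054), and the Flk1+ and HE2 calls with each population fitted alone (adjusted p = 0.0636 and 0.125, limma). Sgce, read from the opposite strand of the same domain, had log2 fold changes of -0.98, -1.01, -0.59, -0.98 and -0.53 in the 5 populations, none of which passed. Its groups overlapped only in ESC, where WT had 2.74 and 0.70 FPKM and Sp3-/- 0.853 and 0.515.

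Peg3 passed only in HE2, where Sp3-/- samples had 66.2 and 53.8 FPKM against 144 and 117 (log2 fold change -1.12 ± 0.293, adjusted p = 0.0164, limma). Both samples were lower than WT in the other populations too, with fold changes from -0.53 to -0.90 that did not pass. Without WT replicate 1 or Sp3-/- replicate 2 the HE2 value was -0.97, and the call was lost. Without the 6 libraries, which leaves 1 WT sample in each population, Peg3 had -0.97 in HE2 and -0.98 in HE1. Impact was slightly lower in ESC, 38.8 and 38.3 against 58.5 and 64.1 FPKM (-0.67 ± 0.156, adjusted p = 0.00932, limma), but not after a correction for GC content and length (-0.39, adjusted p = 0.153). In Sp3-/- ESC the fold changes of 14401 genes rose with GC content (Spearman rho across genes 0.463). The Impact call was also lost without WT replicate 2 (-0.60, adjusted p = 0.0708) or either Sp3-/- replicate (-0.68 and -0.66, adjusted p = 0.0672 and 0.0687, limma). Impact in Flk1+ cells was on the other side, 61.5 and 51.7 FPKM against 43.2 and 47.4, and the difference of 0.98 ± 0.221 between these effects passed the interaction test (adjusted p = 0.0283, limma, called for 1.48% of all genes).

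**Figure D3:**
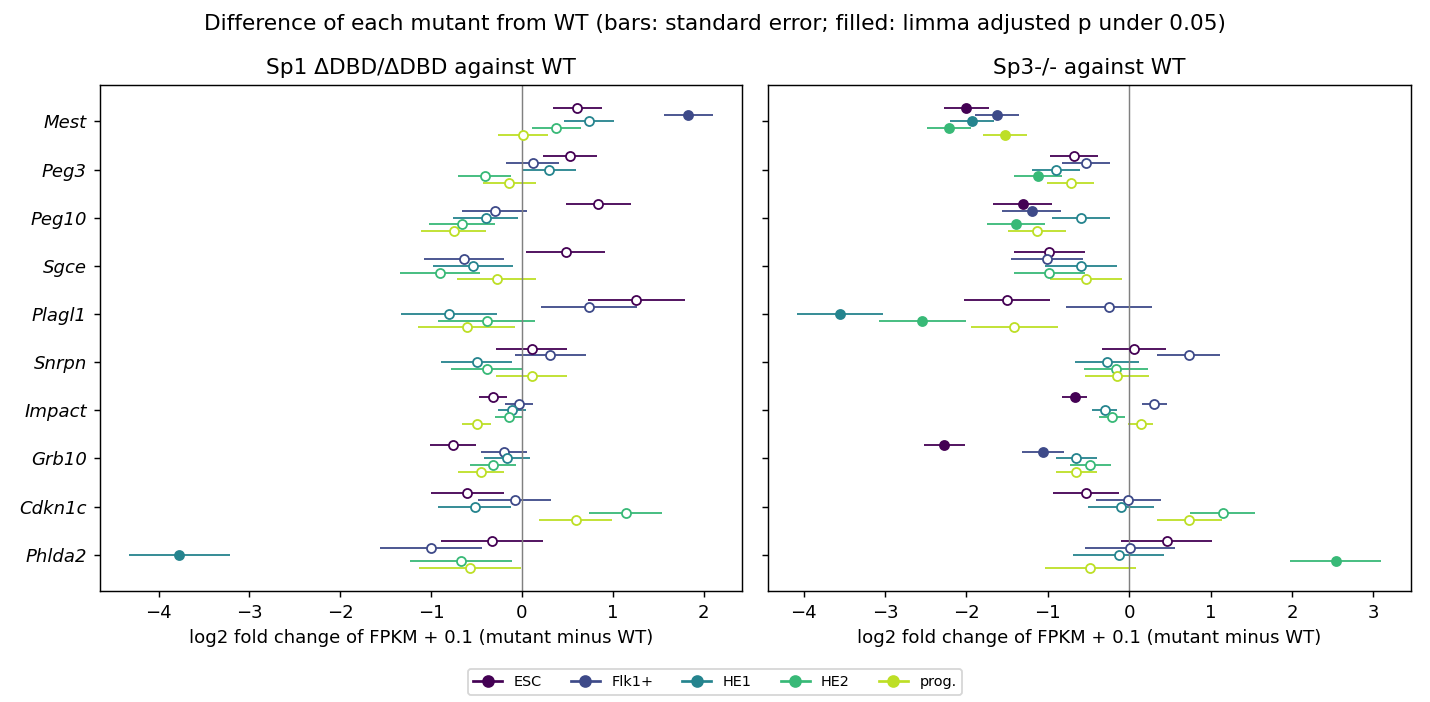
Log2 fold change of FPKM + 0.1 for Sp1 ΔDBD/ΔDBD (left) and Sp3-/- (right) against WT (horizontal), for each gene (vertical) in 5 populations by colour; bars are standard errors, and filled symbols passed limma at an adjusted p under 0.05. In Sp3-/- cells Mest was filled in all 5 populations, and 14 of 15 filled symbols lay left of 0, while in Sp1 ΔDBD/ΔDBD cells only Mest in Flk1+ cells and Phlda2 in HE1 were filled.

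Of the maternally expressed genes other than Grb10, Cdkn1c did not pass in any population, and its Sp3-/- HE2 samples lay above WT (7.01 and 11.8 against 5.16 and 3.18 FPKM, log2 fold change 1.15, adjusted p = 0.063, limma). Without the 6 libraries, which leaves 1 WT sample in each population, the Cdkn1c values were 1.49 in HE2 and 1.42 in progenitors. In progenitors WT had 3.74 and 1.39 FPKM against 4.28 and 3.54 in Sp3-/-. The WT progenitor sample left out, replicate 1, lay within the Sp3-/- range. Phlda2 was called higher in HE2, where all 4 values were close to or under 1 FPKM: 0.589 and 1.18 in Sp3-/- against 0.158 and 0.000732 in WT. The size of this change depends on the pseudocount, and it did not pass with a pseudocount of 1 FPKM (adjusted p = 0.0756, limma). It was also lost without WT replicate 2 (adjusted p = 0.0633) or Sp3-/- replicate 2 (adjusted p = 0.0867, limma), and stayed without the 6 libraries (adjusted p = 0.00203, limma). Snrpn did not pass in any population, with fold changes between -0.27 and 0.73.

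Averaged over the 5 populations, Sp3-/- cells were lower for 6 of 10 genes, where 19.8% of all genes were called lower and 40.5% in either direction. The mean log2 fold changes were -1.86 ± 0.122 for Mest, -1.85 ± 0.237 for Plagl1, -1.12 ± 0.160 for Peg10, -1.02 ± 0.113 for Grb10, -0.82 ± 0.196 for Sgce and -0.79 ± 0.131 for Peg3 (adjusted p from 4.84e-09 to 0.00264, limma). Mest ranked 74 and Plagl1 76 of 14525 genes by the size of this mean. The Plagl1 mean includes ESC and Flk1+ cells, where its group means ran from 0.106 (Sp3-/- ESC) to 0.484 FPKM (WT ESC), near the pseudocount. These 6 calls were kept in all 31 alternatives, leaving out each replicate included. The averages rest on the same samples as the single populations. Their standard errors take the 5 populations as independent, although HE1, HE2 and progenitors were sorted from blast culture. Deviations of their same-numbered samples correlated across populations by 0.382 to 0.458 (WT), 0.451 to 0.649 (Sp1 ΔDBD/ΔDBD) and 0.0264 to 0.161 (Sp3-/-). The adjusted p of the averages, here and for Sp1 ΔDBD/ΔDBD below, may therefore be too small.

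The third comparison set Sp1 ΔDBD/ΔDBD cells against WT. Here 2 of 50 tests passed, Mest in Flk1+ cells and Phlda2 in HE1, and this count depended on the fit. With the replicate block it was 3 and with the block within genotype 7, both calls being kept in each, and neither passed with each population fitted alone (adjusted p = 0.064 and 0.0891). The calls gained with the block within genotype were Grb10 (-0.76) and Impact (-0.32) in ESC, Mest in HE1 (0.74), Cdkn1c in HE2 (1.14) and Impact in progenitors (-0.50). Those gained without the 6 libraries were Peg3 (0.53) and Peg10 (0.84) in ESC and Peg3 in HE1 (0.64). Their ESC fold changes are those of the main fit, and in HE1 1 sample was set against 1. No gene of the 10 passed in ESC, HE2 or progenitors by limma (4, 1 and 1 at an unadjusted p under 0.05), and 1 passed in each of Flk1+ cells and HE1, beside 6.06%, 9.67%, 8.78%, 5.54% and 10% of all genes in the same order. From ESC to progenitors both mutant samples were below both WT samples for 4, 2, 3, 3 and 3 genes (all genes 22.5%, 25.2%, 19.9%, 18.6% and 17.7%) and above for 4, 2, 1, 2 and 0 (all genes 22.7%, 30%, 30.1%, 27.1% and 26.7%). Mest rose, from 61.7 and 82.6 FPKM in WT to 193 and 336 in Sp1 ΔDBD/ΔDBD Flk1+ cells, a log2 fold change of 1.83 ± 0.272 (adjusted p = 0.000335, limma). The Mest groups did not overlap in ESC, HE1 or HE2 either, with Sp1 ΔDBD/ΔDBD higher by 0.61, 0.74 and 0.38, but these did not pass (0.71 and 0.05 in HE1 and HE2 without the 6 libraries), and in progenitors the 4 values lay between 118 and 129 FPKM. The mean over populations was 0.71 ± 0.122 for Mest (adjusted p = 0.000184, limma).

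Phlda2 in HE1 was at 0.177 and 0.00251 FPKM in Sp1 ΔDBD/ΔDBD against 1.38 and 3.48 in WT (adjusted p = 0.00023, limma). The mutant values are near 0, so that no fold change is given. The effect in HE1 differed from that in ESC by the interaction test (adjusted p = 0.0189, limma, called for 3.99% of all genes), a call lost with a pseudocount of 1 FPKM (adjusted p = 0.0814). In Flk1+ cells, where the gene was well expressed, Sp1 ΔDBD/ΔDBD samples had 93.8 and 65.8 FPKM against 169 and 147 so that the WT mean was 1.98 times the mutant mean. This did not pass (adjusted p = 0.365), but did with a pseudocount of 1 FPKM (adjusted p = 0.0465, limma). The mean over the populations, -1.27 for Phlda2, passed but includes the floor values. Grb10 and Impact were also lower on average, by -0.38 ± 0.113 and -0.22 ± 0.0698 (adjusted p = 0.0152 and 0.0193, limma). For Grb10 the chromosome 11 medians in Sp1 ΔDBD/ΔDBD cells were -0.124 to -0.337, and after centring each chromosome the Grb10 mean was -0.10 (adjusted p = 0.558). Without the 6 libraries it was -0.24 (adjusted p = 0.198), and with array weights the adjusted p was 0.0518 (limma). The other 6 genes did not pass on average, and 31.9% of all genes were called in this test.

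Tested directly, the mutants differed for 17 of 50 tests, 14 of them lower in Sp3-/- than in Sp1 ΔDBD/ΔDBD cells. By population 6, 2, 4, 3 and 2 of the 10 genes passed from ESC to progenitors, beside 9.67%, 7.39%, 13.6%, 15.9% and 11.6% of all genes. Mest passed in all 5, with fold changes from -1.54 in progenitors to -3.45 in Flk1+ cells (log2), and kept its calls without the 6 libraries (-2.80 in HE1, -2.47 in HE2 and -1.61 in progenitors). In ESC, Peg3 (-1.21), Peg10 (-2.15), Sgce (-1.46), Grb10 (-1.50) and Plagl1 (-2.76) passed as well, with 0.12 and 0.092 FPKM of Plagl1 in Sp3-/- against 0.91 and 1.83 in Sp1 ΔDBD/ΔDBD, which was lost with a pseudocount of 1 FPKM (-1.07, adjusted p = 0.0559, limma). Plagl1 also passed in HE1 (-2.76) and HE2 (-2.15), the latter with single samples of 6.36 and 2.03 FPKM in Sp1 ΔDBD/ΔDBD, and this HE2 call was lost without its replicate 1 (-1.35, adjusted p = 0.122), without either Sp3-/- replicate (adjusted p = 0.0539 and 0.0592) and without the 6 libraries (adjusted p = 0.0524, limma). Grb10 in Flk1+ cells (-0.86) and Peg3 in HE1 (-1.19, and -1.62 without the 6 libraries) passed too. Single libraries also decided Peg3 in ESC (any of the 4, adjusted p from 0.0558 to 0.0917), Peg3 in HE1 (Sp1 ΔDBD/ΔDBD or Sp3-/- replicate 2, 0.194 and 0.0974), Sgce in ESC (Sp1 ΔDBD/ΔDBD replicate 1 or either Sp3-/- replicate, 0.307, 0.0916 and 0.292) and Grb10 in Flk1+ cells (Sp1 ΔDBD/ΔDBD replicate 2 or Sp3-/- replicate 1, 0.589 and 0.421, limma). The Sgce call was lost too with a pseudocount of 1 FPKM (adjusted p = 0.0973), after GC content and length correction (0.119), with ESC fitted alone (0.306) and without the 6 libraries (0.0568), and the Grb10 call after that correction (0.0673) and with Flk1+ cells fitted alone (0.189, limma). The 3 higher calls were Phlda2 in HE1 and HE2 and Impact in progenitors (0.64 ± 0.156, adjusted p = 0.0118, limma). With each population fitted alone all 3 were lost (adjusted p = 0.0768, 0.0602 and 0.172, limma). The Impact call was also lost without replicate 1 of either mutant. Phlda2 in HE2 was at 0.00093 and 0.00217 FPKM in Sp1 ΔDBD/ΔDBD against 0.589 and 1.18 in Sp3-/-, so that this call rests on values near 0.

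Other imprinted genes of the same domains were listed for comparison, and 27 of 30 were tested. In Sp3-/- cells 0, 2, 0, 0 and 1 of the 27 rose from ESC to progenitors and 1, 5, 2, 4 and 1 fell, with medians of -0.12, -0.53, -0.18, -0.05 and 0.15. In Sp1 ΔDBD/ΔDBD cells 1, 2, 1, 1 and 2 rose and 0, 1, 4, 3 and 3 fell. In both directions together these are 3.7%, 25.9%, 7.41%, 14.8% and 7.41% of the list in Sp3-/- cells, beside 11.3%, 12.6%, 10.9%, 13.8% and 8.65% of all genes, so that the list was under the share of all genes in ESC, HE1 and progenitors. In Sp1 ΔDBD/ΔDBD cells they are 3.7%, 11.1%, 18.5%, 14.8% and 18.5%, beside 6.06%, 5.54%, 10%, 9.67% and 8.78%. On the mean over populations 2 rose and 8 fell in Sp3-/- cells and 6 rose and 4 fell in Sp1 ΔDBD/ΔDBD cells, 37% of the list each, beside 40.5% and 31.9% of all genes. Casd1, an enzyme of sialic acid acetylation in the Peg10-Sgce domain, was at 4.66 and 6.90 FPKM in Sp3-/- Flk1+ cells against 11.9 and 14.7 in WT (log2 fold change -1.21 ± 0.254, adjusted p = 0.00466, limma) and was also lower in HE2 (-1.06, adjusted p = 0.0101), a call lost without the 6 libraries (-0.87, adjusted p = 0.0832, limma). Pon2 and Pon3, paraoxonases of that domain, fell in both mutants. Pon2 was at 38.7 ± 7.36 FPKM (SD, n = 2 here and for the next values) in WT HE1, against 6.64 ± 2.86 (Sp1 ΔDBD/ΔDBD) and 17.0 ± 1.91 (Sp3-/-), with adjusted p = 2.62e-05 and 0.0207 (limma). Pon3 in HE2 was at 9.26 ± 0.0238 FPKM in WT, against 0.595 ± 0.565 (Sp1 ΔDBD/ΔDBD) and 1.17 ± 0.00103 (Sp3-/-), with adjusted p = 0.000166 and 0.00338 (limma). These Pon2 and Pon3 calls stayed without the 6 libraries (adjusted p from 0.000182 to 0.0167, limma).

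Copg2, a coat protein of transport vesicles, overlaps the 3′ end of Mest by 912 bases on the opposite strand. It was at 45.2 and 36.3 FPKM in Sp1 ΔDBD/ΔDBD ESC against 19.2 and 17.7 in WT, and at 51.7 and 53.2 against 22.3 and 22.6 in progenitors. The log2 fold changes were 1.13 and 1.22, each with SE 0.14 (adjusted p = 6.76e-05 and 2.02e-05, limma), and HE2 gave 1.03. In Sp3-/- progenitors Copg2 was at 29.6 and 24.6 FPKM while Mest was at 51.3 and 34.9. The library kit keeps strand, but whether the counting used it is not given, so that reads of the overlap may be shared between Mest and Copg2. In ESC and HE2 the Mest samples of Sp1 ΔDBD/ΔDBD cells also lay above WT (0.61 and 0.38, neither of which passed), and in progenitors Mest had 118 and 129 FPKM against 125 and 120 in WT.

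**Figure D4:**
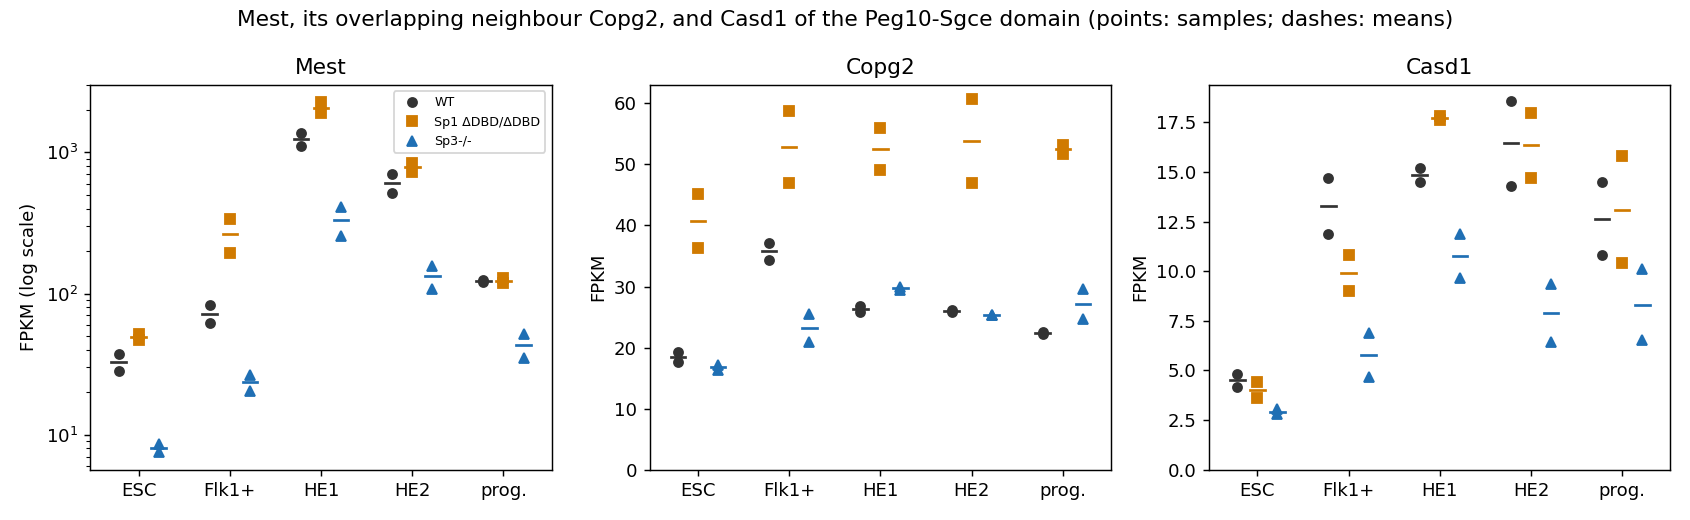
FPKM by population of Mest (log scale), Copg2 and Casd1 (linear scales from 0) in WT (black circles), Sp1 ΔDBD/ΔDBD (orange squares) and Sp3-/- (blue triangles); points are samples and dashes group means. Copg2 lay above WT in every Sp1 ΔDBD/ΔDBD sample of its population, and Mest lay below WT in every Sp3-/- sample.

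Of 21 tested imprinted genes at further loci, 4, 3, 1, 1 and 0 fell in Sp3-/- cells from ESC to progenitors and 0, 0, 1, 0 and 1 rose, and in Sp1 ΔDBD/ΔDBD cells 2, 1, 5, 4 and 2 fell and none rose in a single population by limma (3, 3, 10, 6 and 7 at an unadjusted p under 0.05 in either direction). In both directions together these are 19%, 14.3%, 9.52%, 4.76% and 4.76% of the list in Sp3-/- cells and 9.52%, 4.76%, 23.8%, 19% and 9.52% in Sp1 ΔDBD/ΔDBD cells, to be read beside the shares of all genes above. On the mean over populations 2 rose and 7 fell in Sp3-/- cells, and 3 rose and 6 fell in Sp1 ΔDBD/ΔDBD cells. Each is 42.9% of the list, beside 40.5% and 31.9% of all genes. Nnat, a proteolipid of the endoplasmic reticulum, was at 23.7 ± 23.6 FPKM (SD, n = 2 here and below) in WT HE1, against 1.77 ± 0.174 (Sp1 ΔDBD/ΔDBD, adjusted p = 0.00401) and 3.55 ± 1.24 (Sp3-/-, adjusted p = 0.0305, limma), so that the WT replicates differed widely. Its Sp1 ΔDBD/ΔDBD call stayed without the 6 libraries (-2.03, adjusted p = 0.0319) and its Sp3-/- call was lost (-1.02, adjusted p = 0.198, limma). Zrsr1, a splicing factor gene, was at 1.99 and 4.20 FPKM in Sp1 ΔDBD/ΔDBD ESC against 5.69 and 7.07 in WT (adjusted p = 0.0181, limma), and Ampd3, an AMP deaminase, at 2.05 ± 0.460 against 4.59 ± 0.800 FPKM in HE1 (adjusted p = 0.0189, and 0.134 without the 6 libraries, limma). A list of 12 genes held factors that protect imprints, such as Zfp57, Trim28 and Dnmt1, and also Rlim and Zfp42. Of these 12 genes, 0, 0, 2, 1 and 0 rose in Sp3-/- cells and none fell in a single population by limma (3, 1, 5, 3 and 0 at an unadjusted p under 0.05 in either direction). In Sp1 ΔDBD/ΔDBD cells 0, 0, 1, 2 and 0 of them rose and none fell (1, 1, 5, 4 and 3 at an unadjusted p under 0.05, limma). The largest of these counts, 2 of 12, is 16.7% of the list, beside 10.9% (Sp3-/- HE1) and 9.67% (Sp1 ΔDBD/ΔDBD HE2) of all genes. On the mean over populations 3 rose and 2 fell in Sp3-/- cells, and 4 rose and none fell in Sp1 ΔDBD/ΔDBD cells (5 in each at an unadjusted p under 0.05, limma). These are 41.7% and 33.3% of the list, near the 40.5% and 31.9% of all genes.

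The levels of some of the 10 genes ran in parallel over the 15 group means (log2 scale, Pearson's r, as a description): Sgce with Grb10 0.962, Peg3 with Peg10 0.944, Mest with Plagl1 0.89, and Peg10 with Sgce 0.798. Snrpn ran opposite to Grb10 (-0.852) and Sgce (-0.843). Among 12006 genes with a highest group mean of at least 3 FPKM, the closest to Mest was Ugp2 (0.978), and the closest pairs were, to Peg3, Trio (0.991) and Dchs1 (0.981), to Peg10, Rcn2 (0.957) and Trio (0.93), and, to Sgce, Selenon (0.98) and Ppp3ca (0.976). The closest to Plagl1 were Plekhm3 (0.951) and Ctsd (0.948), to Grb10 Slc30a4 (0.978) and Rc3h1 (0.974), to Cdkn1c Zfp652 (0.962) and Rps6ka2 (0.943), and to Phlda2 Cacnb3 (0.963) and Mgat3 (0.962). Snrpn was closest to Stac2 (0.983) and 4930526L06Rik (0.981), and Impact to 4930487H11Rik (0.893) and Epn2 (0.872). The points share genotypes and populations, and all genes were quantile normalised together.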

How the data were processed

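The authors trimmed reads, aligned them to mm10 with HISAT2 2.1.0, quantified transcripts with StringTie 1.3.3 and kept genes above 1 FPKM, then quantile normalised. The deposited values are therefore quantile normalised FPKM: at 12742 ranks all 30 samples carried an identical value (tolerance 1e-06 FPKM), every sample had a median of 7.19 FPKM, and depth is not known.

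Values were taken as log2(FPKM + 0.1). limma 3.58.1 (R 4.3.3) fitted 15 group means with an intensity trend over genes above 1 FPKM in at least 1 sample (15 residual and 3.92 prior degrees of freedom). P-values are two-sided, adjusted by Benjamini-Hochberg over all genes within a comparison, with a threshold of 0.05. An exact permutation test of 2 against 2 samples cannot go below p = 0.333. On simulated data with 200 genes changed by 2 on the log2 scale, 89.5% were found for Sp3-/- against WT in HE1. The noise was independent and normal, and weakly expressed genes were left unchanged. The share therefore does not apply to smaller changes or to correlated samples. Positions and GC content came from GENCODE M21 (14558 of 14685 genes matched). Genes of further lists were named if called above 1 on the log2 scale and over 3 FPKM on average in whichever group was higher, at most 4 per list by adjusted p, and 2 genes of most alike pattern were named per member, apart from 1 that is not reported here. Members and lists were chosen with earlier results of these data known. Replicates are biological according to the study's methods.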

Additional observations from a re-analysis of the deposited data

Results flagged for a closer look

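In 5 results the effect of a mutation in a later population differed from its effect in ESC by limma's interaction test. For Grb10 the Sp3-/- effect was nearer to 0 than in ESC by 1.62 (HE1), 1.79 (HE2) and 1.61 (progenitors) on the log2 scale, with adjusted p from 0.025 to 0.0341 (limma), and the 3 tests share the ESC samples. The Grb10 calls were lost when ESC Sp3-/- replicate 2 was left out, at 1.48, 1.65 and 1.47 (adjusted p = 0.109, 0.138 and 0.132), and under 5 to 7 other single libraries. For Impact the Sp3-/- effect in Flk1+ cells was 0.98 above that in ESC (adjusted p = 0.0283), and 0.86 without Flk1+ Sp3-/- replicate 1 (adjusted p = 0.163, limma), a call that 6 of the other 7 libraries and centring of chromosomes (0.90, adjusted p = 0.0539) also ended. For Phlda2 the Sp1 ΔDBD/ΔDBD effect in HE1 was below that in ESC (-3.44, adjusted p = 0.0189, limma), which rests on HE1 values near 0 and was -1.27 with a pseudocount of 1 FPKM (adjusted p = 0.0814) and -2.72 without HE1 Sp1 ΔDBD/ΔDBD replicate 2 (adjusted p = 0.112), with 3 other single libraries and array weights also ending the call.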

How the results depend on the processing

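Of 117 calls over 37 comparisons, 111 remained with a pseudocount of 1 FPKM, 117 without the filter or with a filter in 2 samples, 112 after GC content and length correction, 114 chromosome-centred, 117 sample-centred and 105 with array weights, and no called value reversed. With each population fitted alone the counts fell to 5 for Sp3-/- against WT, 10 for Sp3-/- against Sp1 ΔDBD/ΔDBD, and 0 for Sp1 ΔDBD/ΔDBD against WT (15 at an unadjusted p under 0.05, limma), fits that have fewer samples. For Sp1 ΔDBD/ΔDBD against WT the count of 2 became 4 with GC content and length correction, 7 with the replicate block within genotype, 7 with that correction and the replicate block, and 5 without the 6 libraries. Array weights gave 24 calls for Sp3-/- against WT. Effects differing from ESC became 8 with the replicate block, 12 with the block within genotype, 10 with correction and block, and 13 without the 6 libraries, an alternative chosen after seeing the data. The causes were not tested. Leaving out 1 replicate gave 2 to 4 calls for Sp1 ΔDBD/ΔDBD and 12 to 19 for Sp3-/- against WT, 14 to 17 between mutants, and 1 to 6 for effects differing from ESC (1 without ESC WT replicate 2 or either ESC Sp3-/- replicate, 3 without ESC WT replicate 1 or HE1 WT replicate 2). In these fits the lone sample is assumed to vary like the other groups.

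Same-numbered samples share only a number in the labels. Their deviations correlated by 0.255 to 0.481 between WT and Sp1 ΔDBD/ΔDBD, by 0.00318 to 0.194 between WT and Sp3-/-, and those of the 3 blast culture populations within a genotype by 0.382 to 0.458 (WT), 0.451 to 0.649 (Sp1 ΔDBD/ΔDBD) and 0.0264 to 0.161 (Sp3-/-). With the replicate block Sp3-/- against WT had 22 calls in place of 15. Of the 117 calls none was lost with the block or with the block within genotype, which added 20 and 32.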
